A study of Mus musculus with 18 samples.

Results

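Cochlear epithelial non-hair cells (ENHC) were compared with vestibular ENHC in newborn mice. The members are the 3 arrays of Cochlear ENHC and the 3 arrays of Vestibular ENHC, which make 6 of the 18 arrays measured. They were chosen by their labels for organ and cell type, and no measured value entered the rule. The choice of this comparison and of the gene lists was made with earlier results of these data known. All 12002 genes with a probe detected on at least 2 of the 18 arrays were tested, which are all the genes tested in the series.

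The study sorted hair cells (HC), ENHC and non-epithelial cells (NEC) from the auditory sensory epithelium and from the vestibular tissue of the inner ear, giving 6 groups of 3 arrays. All groups came from postnatal day 1 mice of 1 strain, Atoh1/nGFP on a C57BL/6 background, in which regulatory sequence of Atoh1 drives a nuclear green fluorescent protein (GFP) in hair cells. ENHC were sorted as cells that carry the epithelial surface protein CD326, encoded by Epcam, and lack GFP. The labels name this cell type ENSCs, and the inner ears of several mice were pooled for each biological replicate. The gate takes every CD326-positive cell without GFP, so it does not separate supporting cells from other epithelium of the duct or sac, and a level is an average over them. In such a sorted pool, fewer cells that express a gene and less RNA per cell cannot be told apart. The tissue collected also differed, auditory sensory epithelium against vestibular tissue. An organ difference thus cannot be told apart from a different share of nonsensory epithelium in the pools.

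Sensory patches of the inner ear hold hair cells set among supporting cells, and nonsensory epithelium surrounds them. In the cochlea the epithelium secretes the tectorial membrane, a gel that lies over the organ of Corti. In the vestibular organs the epithelium secretes the otoconial membrane of the utricle and saccule and the cupula of the cristae. Dark cells of the vestibular organs and the stria vascularis of the cochlea move potassium into the fluid called endolymph, and other epithelial cells absorb sodium or secrete bicarbonate.

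The sorted cells carried the label's markers. Epcam measured 11.53, 11.02 and 11.05 on the 3 Cochlear ENHC arrays, against 11.70, 11.19 and 11.22 on the 3 Vestibular ENHC arrays, in normalized signal on the log2 scale, the unit of every level given here. Arrays are listed as replicates 1, 2 and 3 throughout. All 14 measured epithelial markers were detected on all 6 arrays. Krt8, Krt18 and Cldn3 among them were called lower in cochlear ENHC (21.4% called, against 11% of all genes tested). This count of 3 was 0 under median scaling or without Vestibular ENHC replicate 3 and 1 without Cochlear ENHC replicate 2. Atoh1 and Pou4f3, the transcription factors that define hair cells, together with Lhfpl5 and Otof, were detected on none of the 6 arrays. Gfi1, a further hair cell factor, did not pass the test. Of the hair cell list of 27 genes, 2 were detected on all 3 Cochlear ENHC arrays and 2 on all 3 Vestibular ENHC arrays. On no array of the group were 22 detected in cochlear ENHC and 19 in vestibular ENHC. The summed signal of the list was 2245 to 2776 in cochlear ENHC and 3240 to 3940 in vestibular ENHC. It was 24163 to 31433 in Cochlear HC and 28175 to 33178 in Vestibular HC. Each ENHC array was closest to another array of its own group, with a mean correlation of 0.957 to 0.973 within the group and of 0.913 to 0.937 with the other organ over the genes tested. Between 16668 and 18335 probes were detected on an ENHC array, and the border between detected and undetected probes lay between 5.265 and 5.522 on these arrays.

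4 promoters are shown because the genes behind them carry the contrast. Gata3 and its neighbour 4930412O13Rik lie on opposite strands of chromosome 2 with their starts 2646 bases apart, and both were detected on all 3 Cochlear ENHC arrays and on no Vestibular ENHC array. Epyc had the largest difference among genes higher in cochlear ENHC, and Tacr3 was detected only on the vestibular side among the ENHC arrays. Each sequence runs from 250 bases before to 50 bases after a RefSeq gene start (build GRCm38.p6), 5′ to 3′ on the strand of the gene. Capitals mark AGATAA, the GATA family motif, or TATAAA, the TATA box, on either strand; the windows of Gata3 and 4930412O13Rik hold none of the 5 motifs searched.
Gata3, chr2:9878551-9878850, - strand: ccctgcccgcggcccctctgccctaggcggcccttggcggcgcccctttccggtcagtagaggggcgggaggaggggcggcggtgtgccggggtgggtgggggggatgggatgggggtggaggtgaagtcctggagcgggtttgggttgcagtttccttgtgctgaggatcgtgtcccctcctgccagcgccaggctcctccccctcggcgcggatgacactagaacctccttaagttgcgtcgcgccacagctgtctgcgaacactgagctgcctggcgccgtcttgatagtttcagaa
4930412O13Rik, chr2:9880996-9881295, + strand: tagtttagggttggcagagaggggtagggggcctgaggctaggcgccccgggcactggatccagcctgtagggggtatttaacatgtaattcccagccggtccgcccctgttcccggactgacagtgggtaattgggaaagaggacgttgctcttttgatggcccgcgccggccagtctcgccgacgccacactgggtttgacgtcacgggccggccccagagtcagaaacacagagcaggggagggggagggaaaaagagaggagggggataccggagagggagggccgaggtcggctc
Epyc, chr10:97646853-97647152, + strand: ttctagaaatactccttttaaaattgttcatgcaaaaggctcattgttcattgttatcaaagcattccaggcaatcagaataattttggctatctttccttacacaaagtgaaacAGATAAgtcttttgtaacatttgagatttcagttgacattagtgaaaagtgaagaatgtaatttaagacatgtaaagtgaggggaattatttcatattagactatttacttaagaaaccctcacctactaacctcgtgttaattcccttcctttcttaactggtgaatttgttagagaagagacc
Tacr3, chr3:134828757-134829056, + strand: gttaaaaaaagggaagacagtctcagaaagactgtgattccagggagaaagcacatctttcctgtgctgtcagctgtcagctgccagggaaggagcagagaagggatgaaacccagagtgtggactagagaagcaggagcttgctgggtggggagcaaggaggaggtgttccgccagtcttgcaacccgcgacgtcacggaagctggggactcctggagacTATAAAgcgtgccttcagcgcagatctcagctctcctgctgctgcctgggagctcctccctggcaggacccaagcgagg

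The organ difference in ENHC was broad and nearly even in its direction. At an adjusted p under 0.05 by limma over all 12002 genes, 1323 genes were called (11%), of which 656 were higher in cochlear ENHC (5.47%) and 667 were lower (5.56%). The difference is always cochlear minus vestibular, and the median over all genes tested was 0.03 on the log2 scale. A difference of at least 2-fold was reached by 400 of the genes called higher and by 476 of those called lower. The 3 arrays of one side lay wholly above or below the other 3 for 26.3% of all genes tested, for 642 of the 656 genes called higher and for 651 of the 667 called lower. 90 of the genes called higher were detected on all 3 Cochlear ENHC arrays and on no Vestibular ENHC array, and 135 of those called lower showed the reverse. 5 called genes were detected on no ENHC array. Where a gene was undetected on all arrays of one side, its fold is a lower bound, written "at least": the mean of the detected side was set against, on each array of the other side, the border signal between detected and undetected probes or the gene's own signal, whichever was higher. Folds of genes detected on only some arrays of a side rest in part on background.

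The 12 genes with the largest measured differences higher in cochlear ENHC were Epyc, Pcolce2, Adgrg2, Lum, Clic6, Irx3, Itgb6, Itga8, Igf2, Scara3, Moxd1 and Prdm16. These 12 were chosen among called genes detected on all 3 Cochlear ENHC arrays and on at least 1 Vestibular ENHC array, without overlap. Epyc, which encodes the small leucine-rich proteoglycan epiphycan, measured 11.75, 11.81 and 12.01 on the Cochlear ENHC arrays, against 4.93, 4.71 and 8.18 on the Vestibular ENHC arrays. All 3 cochlear arrays lay far above the vestibular ones, of which replicate 3 stood above the other two. The difference was 5.91 ± 0.60 (SE, adjusted p = 1.43e-06 by limma), and 7.03 without Vestibular ENHC replicate 3. Lum, the related proteoglycan lumican, measured 10.36, 10.34 and 10.35 in cochlear ENHC, against 5.05, 5.34 and 7.12 in vestibular ENHC, a difference of 4.51 ± 0.35 (adjusted p = 5.57e-08) that was 5.16 without Vestibular ENHC replicate 3. Pcolce2, an enhancer of procollagen processing, measured 10.47, 10.30 and 10.90 in cochlear ENHC, against 5.36, 4.70 and 6.70 in vestibular ENHC (difference 4.97 ± 0.42, adjusted p = 1.24e-07). Vestibular ENHC replicate 3 was the highest of its group for all 3 genes.

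2 of the 12 genes encode integrin subunits. Itgb6, the beta subunit of an epithelial integrin, measured 9.78, 9.44 and 10.05 in cochlear ENHC, against 6.31, 5.27 and 6.96 in vestibular ENHC (difference 3.57 ± 0.29, adjusted p = 7.47e-08). Itga8, the alpha 8 integrin subunit, measured 8.98, 8.05 and 8.87 in cochlear ENHC, against 4.86, 5.14 and 5.78 in vestibular ENHC (difference 3.37 ± 0.33, adjusted p = 7.29e-07). Lack of overlap between the groups was a condition for listing both genes. Adgrg2, an adhesion G protein-coupled receptor, measured 10.26, 9.95 and 10.42 in cochlear ENHC, against 5.11, 5.25 and 6.04 in vestibular ENHC, where it was detected on 1 array (difference 4.75 ± 0.31, adjusted p = 5.03e-09, and 3.38 without background correction). Without background correction the differences were smaller for such genes, 4.59 for Epyc and 3.31 for Lum. The log2 differences of the remaining 6 genes were 3.91 for Clic6, 3.64 for Irx3, 3.37 for Igf2, 3.36 for Scara3, 3.26 for Moxd1 and 3.24 for Prdm16.

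8 genes had the largest lower bounds among those detected on all 3 Cochlear ENHC arrays and on no Vestibular ENHC array. Thrb, which encodes the thyroid hormone receptor beta and is needed for hearing, measured 8.88, 8.72 and 8.71 in cochlear ENHC, against 4.95, 5.17 and 4.92 in vestibular ENHC. It was at least 10.6-fold higher (adjusted p = 2.12e-10 by limma), and no cochlear array came near a vestibular one. Nr2e1, a nuclear receptor also called Tlx, was at least 10.2-fold higher at 9.39, 8.04 and 8.71 in cochlear ENHC, against 4.62, 4.64 and 4.999 in vestibular ENHC. Spink5, a serine protease inhibitor of epithelia, was at least 7.44-fold higher and Isl2, a LIM homeodomain factor, at least 6.25-fold. The others were 4930412O13Rik (at least 7.87-fold), Crabp1 (6.83), Mctp1 (5.09) and Upp1 (4.47), the last an enzyme of uridine breakdown.

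In vestibular ENHC the leading genes included Zpld1, which encodes a zona pellucida domain protein of the cupula. Zpld1 measured 5.20, 6.39 and 6.30 on the Cochlear ENHC arrays, against 11.57, 11.89 and 11.71 on the Vestibular ENHC arrays, a difference of -5.76 ± 0.37 (adjusted p = 5.09e-09 by limma). Ltbp1, a protein that holds latent TGF-beta in the matrix, measured 4.78, 6.20 and 5.09 in cochlear ENHC, against 9.46, 10.08 and 9.99 in vestibular ENHC (difference -4.48 ± 0.42, adjusted p = 5.36e-07). Itgbl1, a secreted protein with integrin-like repeats, measured 6.46, 6.57 and 5.89 in cochlear ENHC, against 10.10, 10.40 and 10.07 in vestibular ENHC (difference -3.88 ± 0.47, adjusted p = 1.19e-05). The groups were separated by more than the spread of either for all 3 genes, and lack of overlap was a condition for listing them. Atp2a3, a calcium pump of the endoplasmic reticulum, differed by -3.87 ± 0.43, and Ifitm3, an interferon-induced membrane protein, by -3.80 ± 0.18. Igfbp2 (-4.04), Sbspon (-3.76) and Bpifb3 (-3.64), with Aldh1a3, Aldh1a1, Dlx5 and Meis2, were the other genes among the 12 with the largest measured negative differences.

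Genes seen only on the vestibular side among the ENHC arrays were led by Vit, which encodes the matrix protein vitrin. Vit measured 4.35, 4.46 and 4.38 in cochlear ENHC, against 9.90, 9.87 and 9.47 in vestibular ENHC, so cochlear ENHC were at least 19.2-fold lower (adjusted p = 2.12e-10 by limma). Mybpc1, a myosin-binding protein, was at least 14.1-fold lower at 4.49, 4.37 and 4.75 in cochlear ENHC, against 9.23, 9.31 and 9.36 in vestibular ENHC. Dlk1, a noncanonical Notch ligand of immature cells, was at least 13.3-fold lower at 4.85, 4.59 and 4.60 in cochlear ENHC, against 9.42, 9.20 and 9.03 in vestibular ENHC. All 3 genes were undetected on every Cochlear ENHC array and lay above 9 on every Vestibular ENHC array. Fndc7 was at least 12.2-fold lower, the chondroitin sulphate proteoglycan Vcan 9.53-fold, Fam171b 8.3-fold and Tacr3, the neurokinin 3 receptor, 7.23-fold.

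**Figure D1:**
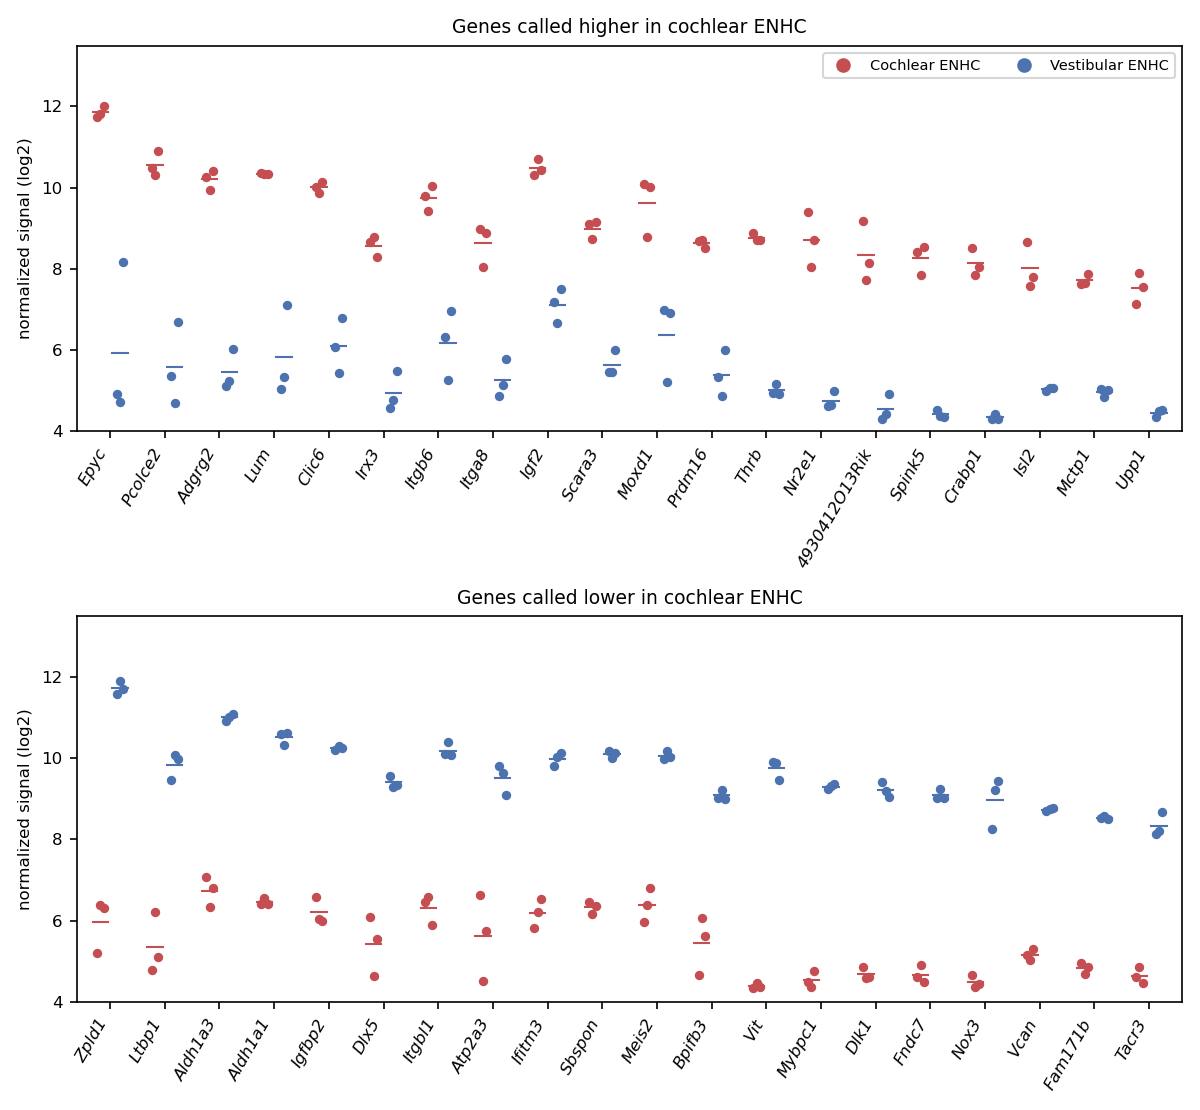
Normalized signal (log2, y axis) of the 20 genes with the largest differences or lower bounds in each direction, 1 point per array and a line at the mean of 3 arrays, Cochlear ENHC left of Vestibular ENHC for each gene. The groups do not overlap for any gene shown, which was a condition for listing the genes ranked by difference. Epyc reaches 8.18 on 1 vestibular array and stays at 4.93 or below on the other vestibular arrays.

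Transcription factors of the otic epithelium were called about as often in one direction as in the other. Of 53 measured, 13 were higher in cochlear ENHC and 13 were lower (24.5% each, against 5.47% and 5.56% of all genes tested), and the median difference was 0.06. Those higher in cochlear ENHC were Nr2e1, Irx3, Lmo3, Irx5, Sall3, Gata3, Ebf1, Mycn, Nr2f2, Sox21, Isl1, Barx2 and Eya4, and Barx2 and Eya4 lost their call when any of several arrays was left out. Those lower were Dlx5, Meis2, Tbx3, Esrrb, Tbx1, Pax2, Etv1, Meis1, Zic1, Dlx3, Dach2, Otx2 and Etv5.

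Gata3, a zinc finger factor needed for development of the cochlea, measured 6.79, 7.01 and 7.15 in cochlear ENHC, against 4.43, 4.45 and 4.57 in vestibular ENHC. It was at least 3.06-fold higher (adjusted p = 5.53e-08 by limma) and undetected on every vestibular array. Its neighbour 4930412O13Rik, a transcript without a named function whose promoter is printed above with that of Gata3, measured 9.17, 7.73 and 8.13 in cochlear ENHC, against 4.31, 4.42 and 4.92 in vestibular ENHC. Both were also detected on all 3 Cochlear HC arrays and on no Vestibular HC, Cochlear NEC or Vestibular NEC array. The paralogue Gata2 did not pass the test, at 10.70, 10.68 and 10.14 in cochlear ENHC, against 10.81, 10.88 and 10.77 in vestibular ENHC (difference -0.31 ± 0.35, adjusted p = 0.696).

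The Iroquois homeodomain genes Irx3 and Irx5 rose together. Irx3 measured 8.66, 8.78 and 8.28 in cochlear ENHC, against 4.57, 4.78 and 5.48 in vestibular ENHC (difference 3.64 ± 0.25, adjusted p = 8.65e-09), and Irx5 measured 8.54, 8.30 and 8.44, against 5.94, 5.38 and 5.63 in vestibular ENHC (2.77 ± 0.23, adjusted p = 1.35e-07). Neither overlapped between the organs, which for Irx3 was a condition of its listing above. The same held for 642 of the 656 genes called higher and for 26.3% of all genes tested. Lmo3, a LIM-only cofactor, differed by 2.86 ± 0.30, the spalt factor Sall3 by 2.53 ± 0.28 and the early B cell factor Ebf1 by 2.44 ± 0.25.

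Factors lower in cochlear ENHC were led by homeodomain and T-box genes. Dlx5, a distal-less homeodomain factor needed for the semicircular canals, measured 6.08, 4.65 and 5.54 in cochlear ENHC, against 9.56, 9.30 and 9.35 in vestibular ENHC (difference -3.98 ± 0.33, adjusted p = 1.05e-07). Meis2, a TALE homeodomain factor, measured 5.97, 6.39 and 6.81 in cochlear ENHC, against 9.97, 10.18 and 10.02 in vestibular ENHC (-3.67 ± 0.23, adjusted p = 3.9e-09). Tbx3, a T-box repressor, measured 5.13, 5.58 and 5.18 in cochlear ENHC, against 8.30, 8.84 and 8.59 in vestibular ENHC (-3.28 ± 0.18, adjusted p = 7.63e-10). Each of the 3 separated the organs on every array, which for Dlx5 and Meis2 was a condition of their listing above. So did 651 of the 667 genes called lower and 26.3% of all genes tested. Tbx1 was at least 3.19-fold lower in cochlear ENHC and undetected there. Pax2, a paired-box factor of the otic placode, differed by -1.997 ± 0.19, and Esrrb, a nuclear receptor of endolymph-secreting cells, by -2.93 ± 0.44.

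Sox2, Prox1, Lmx1a, Sox9 and Otx1 did not pass the test, but 3 of them did with the replicate number as a block. Sox2, the prosensory and supporting cell factor, measured 8.81, 9.10 and 8.91 in cochlear ENHC, against 8.03, 8.03 and 8.77 in vestibular ENHC (0.67 ± 0.24, adjusted p = 0.0906, and 0.0649 with the block). Without Vestibular ENHC replicate 3 the adjusted p of Sox2 was 0.0205. Prox1 differed by 0.77 ± 0.29 (adjusted p = 0.105, and 0.0358 with the block) and Sox9 by 0.58 ± 0.24 (adjusted p = 0.156, and 0.044 with the block). Lmx1a differed by -1.17 ± 0.50 (adjusted p = 0.17, and 0.0135 in a fit of the 6 ENHC arrays alone). Otx2 was lower in cochlear ENHC by 1.23 on the log2 scale (SE 0.19, adjusted p = 0.00016), while Otx1 differed by -0.46 ± 0.17 (adjusted p = 0.0893, and 0.0437 with the block).

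**Figure D2:**
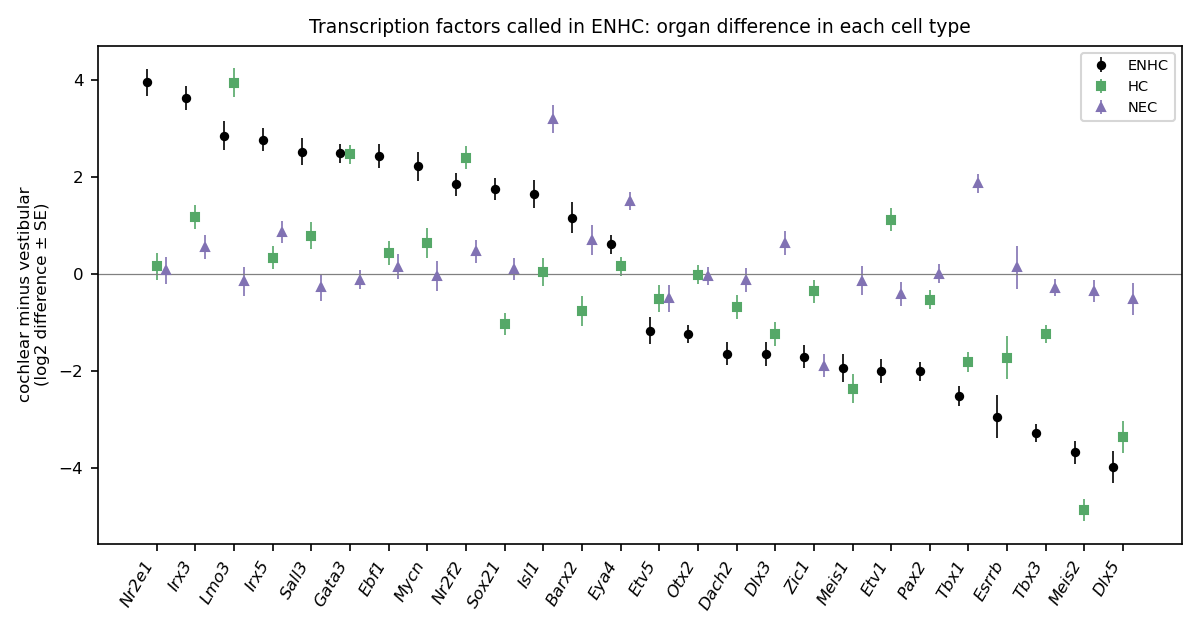
Cochlear minus vestibular difference (log2 ± SE, y axis) of the 26 transcription factors called in ENHC, for ENHC, HC and NEC. Gata3 has nearly equal differences in ENHC and HC (2.50 and 2.47) and -0.11 in NEC, while Nr2e1 has 3.96 in ENHC, 0.16 in HC and 0.08 in NEC.

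Of 39 measured genes of cochlear supporting cells and ridges, 16 were called higher in cochlear ENHC (41%) and 2 lower (5.13%). Shares over all genes tested were 5.47% and 5.56%. The other members of the list did not pass the test, and its median difference was 0.63. This list was drawn from genes known for the cochlea. Calb1, the calcium-binding protein calbindin, was at least 1.78-fold higher at 6.11, 6.07 and 6.42, against 4.34, 4.37 and 4.29 in vestibular ENHC. Lgr5, a receptor for R-spondins that marks supporting cells with progenitor ability, was at least 2.42-fold higher at 6.42, 6.53 and 6.995 in cochlear ENHC, against 4.53, 4.53 and 4.83 in vestibular ENHC. Ano1, a calcium-activated chloride channel of the greater epithelial ridge, measured 8.43, 7.66 and 8.57 in cochlear ENHC, against 6.33, 5.63 and 6.40 in vestibular ENHC (2.10 ± 0.26, adjusted p = 1.38e-05). None of the 3 overlapped between organs, nor did 642 of the 656 genes called higher and 26.3% of all genes tested. The 2 members called lower were Aldh1a1 and Matn4. Matn4, the matrix protein matrilin 4, measured 11.12, 10.49 and 10.58 in cochlear ENHC, against 13.46, 12.65 and 12.70 in vestibular ENHC.

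Genes for matrix of the tectorial membrane were mostly detected in both organs. Of 14 measured, 5 were called higher in cochlear ENHC and 0 lower (median difference 0.33). That is 35.7% and 0%, against 5.47% and 5.56% of all genes tested. Tectb, which encodes beta-tectorin, measured 11.46, 11.30 and 11.51 in cochlear ENHC, against 9.90, 9.81 and 10.62 in vestibular ENHC (1.32 ± 0.22, adjusted p = 0.000304). Tecta, which encodes alpha-tectorin, measured 11.36, 11.03 and 11.56 in cochlear ENHC, against 9.69, 10.07 and 10.25 in vestibular ENHC (1.32 ± 0.25, adjusted p = 0.00124). Otoa, which encodes otoancorin, an anchor between epithelium and overlying gel, differed by 0.84 ± 0.23 (adjusted p = 0.0224), a call that ended without Cochlear ENHC replicate 2 or without Vestibular ENHC replicate 2. All 3 were detected on all 6 arrays. Epyc and Dcn, which encodes decorin, were the other members called, and Otog (-0.41 ± 0.20) and Col2a1 (-0.36 ± 0.25) did not pass the test.

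Among genes of otoconia, cupula and other vestibular matrix, 4 of 18 measured were lower in cochlear ENHC and 2 were higher (median difference -0.24). Lower were 22.2% and higher 11.1%, against 5.56% and 5.47% of all genes tested. Nox3, the oxidase needed to form otoconia, measured 4.65, 4.36 and 4.43 in cochlear ENHC, against 8.26, 9.23 and 9.44 in vestibular ENHC. Cochlear ENHC were at least 11.25-fold lower (adjusted p = 3.03e-10 by limma), and Nox3 was detected on no HC or NEC array. Otol1, which encodes the scaffold protein otolin, measured 8.79, 8.51 and 8.90 in cochlear ENHC, against 11.44, 11.61 and 11.65 in vestibular ENHC (-2.83 ± 0.26, adjusted p = 4.78e-07). Oc90, the main protein of otoconia, measured 11.09, 11.24 and 11.54 in cochlear ENHC, against 12.17, 12.18 and 12.20 in vestibular ENHC, and did not pass the test (-0.89 ± 0.38, adjusted p = 0.165, and 0.0174 in a fit of the 6 ENHC arrays alone). Otol1 and Oc90 were thus detected in ENHC of both organs. The 2 members called higher were Tecta and Otoa, which the tectorial list also holds.

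Of 35 measured ion transport genes of nonsensory epithelium, 15 were called lower in cochlear ENHC (42.9%) and 3 higher (8.57%). All genes tested stood at 5.56% and 5.47%. How much nonsensory epithelium, such as stria vascularis or dark cells, each pool held was not measured. The median difference of the list was -0.25 (-0.14 with genes undetected on one side at their bound). Scnn1b, the beta subunit of the epithelial sodium channel, measured 6.10, 5.63 and 5.45 in cochlear ENHC, against 8.70, 8.15 and 8.27 in vestibular ENHC (-2.65 ± 0.18, adjusted p = 1.2e-08). Car12, a carbonic anhydrase, measured 6.62, 6.39 and 6.30 in cochlear ENHC, against 9.64, 9.54 and 9.52 in vestibular ENHC (-3.13 ± 0.28, adjusted p = 2.59e-07). Kcne1, the partner subunit of the potassium channel that fills endolymph, measured 5.59, 5.66 and 5.84 in cochlear ENHC, against 8.07, 7.56 and 7.97 in vestibular ENHC (-2.17 ± 0.21, adjusted p = 9.16e-07). The organs were apart on every array for all 3 genes, as for 651 of the 667 genes called lower and 26.3% of all genes tested. Bsnd, the chloride channel subunit barttin, differed by -3.11 ± 0.36, Slc26a4, the anion exchanger pendrin, by -1.42 ± 0.18, and Kcne2 by -1.77 ± 0.26. Cftr and Aqp4 were undetected in cochlear ENHC. Atp6v1b1, a proton pump subunit, ran the other way, at 7.62, 8.22 and 7.83 in cochlear ENHC, against 5.85, 6.61 and 6.30 in vestibular ENHC (1.64 ± 0.19, adjusted p = 8.77e-06). Slc12a2, the sodium, potassium and chloride cotransporter of marginal and dark cells, did not pass the test (0.72 ± 0.30, adjusted p = 0.146, and 0.0163 with the replicate number as a block).

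Retinoic acid genes split by their step in the pathway: all 3 retinaldehyde dehydrogenases measured, which make retinoic acid, were lower in cochlear ENHC, and the binding and breakdown genes called were higher. Of 16 measured, 3 were called higher (18.8%) and 4 lower (25%), against 5.47% and 5.56% of all genes tested. The median difference was 0.02. Aldh1a3 measured 7.07, 6.34 and 6.80 in cochlear ENHC, against 10.92, 11.02 and 11.09 in vestibular ENHC (-4.27 ± 0.25, adjusted p = 1.7e-09). Aldh1a1 measured 6.41, 6.56 and 6.41 in cochlear ENHC, against 10.60, 10.33 and 10.62 in vestibular ENHC (-4.05 ± 0.38, adjusted p = 5.76e-07). Aldh1a2 was undetected in cochlear ENHC and at least 5.04-fold lower there. Rdh10, the retinol dehydrogenase that acts before them, was also lower (-1.37 ± 0.20, adjusted p = 9.53e-05).

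Crabp1, a cytoplasmic retinoic acid binding protein, measured 8.53, 7.85 and 8.04 in cochlear ENHC, against 4.30, 4.44 and 4.31 in vestibular ENHC, at least 6.83-fold higher (adjusted p = 8.98e-11 by limma). Crabp2 measured 8.59, 8.91 and 9.19 in cochlear ENHC, against 6.71, 7.001 and 7.12 in vestibular ENHC (1.95 ± 0.26, adjusted p = 2.84e-05). Cyp26b1, which breaks retinoic acid down, measured 7.86, 7.37 and 8.14 in cochlear ENHC, against 5.71, 4.94 and 5.98 in vestibular ENHC (2.24 ± 0.30, adjusted p = 3.78e-05). Every cochlear array lay above every vestibular array for these genes. Lack of overlap held for 642 of the 656 genes called higher and for 26.3% of all genes tested. Of the retinoic acid receptors, Rarg was detected on all 6 arrays and did not pass the test (0.12 ± 0.23), and Rara and Rarb were detected on no Cochlear ENHC array and on at most 1 Vestibular ENHC array.

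**Figure D3:**
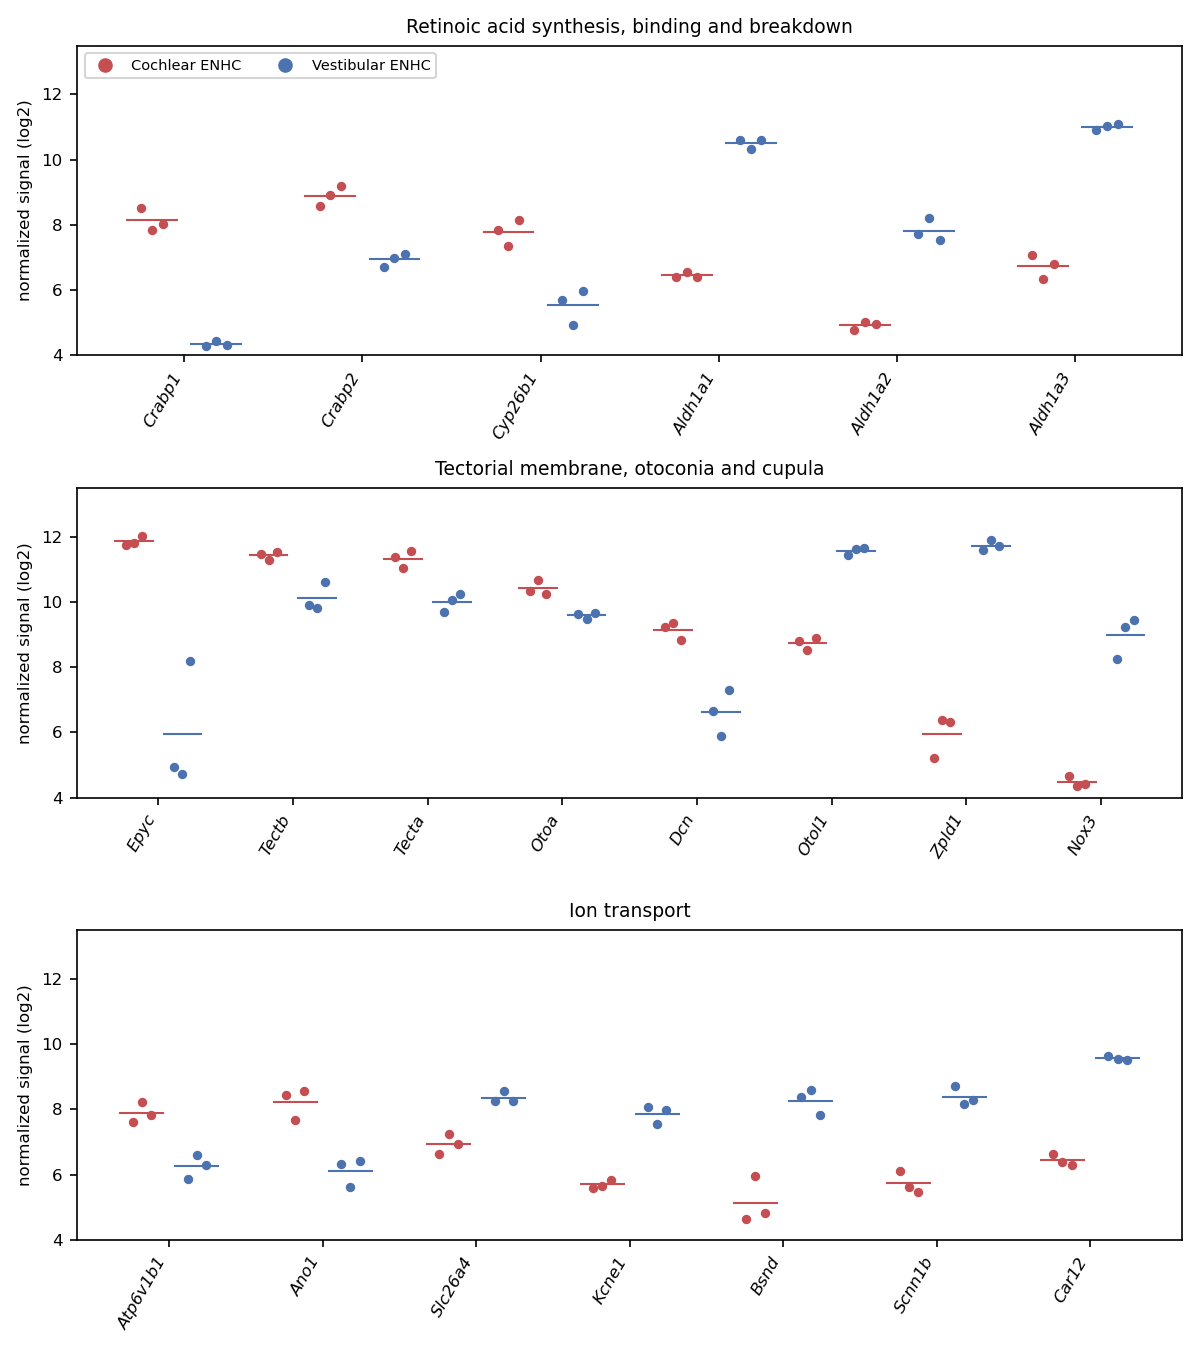
Normalized signal (log2, y axis) of retinoic acid, membrane and otoconia, and ion transport genes, 1 point per array and a line at the mean of 3 arrays, Cochlear ENHC left of Vestibular ENHC. Aldh1a1, Aldh1a2 and Aldh1a3 sit lower in cochlear ENHC while Crabp1, Crabp2 and Cyp26b1 sit higher.

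Growth factor pathways held members called in both directions. In the IGF pathway, 5 of 14 measured genes were higher (35.7%) and 3 lower (21.4%), against 5.47% and 5.56% of all genes tested. The median difference was 0.53. Igf2, a growth factor, measured 10.32, 10.70 and 10.43 in cochlear ENHC, against 7.18, 6.67 and 7.50 in vestibular ENHC (3.37 ± 0.21, adjusted p = 4.01e-09), and its binding protein gene Igfbp2 measured 6.58, 6.04 and 5.99, against 10.20, 10.29 and 10.25 in vestibular ENHC (-4.04 ± 0.20, adjusted p = 2.1e-10). Both were detected on all 6 arrays, and lack of overlap was a condition of their listing above. The IGF count of 8 called was 4 without Cochlear ENHC replicate 3, 5 without Vestibular ENHC replicate 1 and 3 without Vestibular ENHC replicate 2.

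In the BMP and TGF-beta pathway, 10 of 34 measured genes were higher (29.4%) and 5 lower (14.7%), with a median difference of 0.11. Over all genes tested, 5.47% were higher and 5.56% lower. Bmp4, a ligand, measured 8.90, 10.03 and 8.79 in cochlear ENHC, against 6.88, 7.33 and 6.75 in vestibular ENHC (2.25 ± 0.38, adjusted p = 0.000371), and Tgfb2, another ligand, differed by 1.42 ± 0.18. Extracellular inhibitors went in both directions. Fst, which encodes the activin inhibitor follistatin, measured 7.27, 7.44 and 7.01 in cochlear ENHC, against 4.40, 4.41 and 5.66 in vestibular ENHC (2.42 ± 0.33, adjusted p = 4.88e-05). Grem1, which encodes the BMP inhibitor gremlin 1, was undetected in cochlear ENHC and at least 6.85-fold lower there. Bmper, another BMP regulator, was higher (2.48 ± 0.30).

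Wnt pathway genes were called in both directions, 8 of 45 measured higher and 7 lower (median difference 0.01). These are 17.8% and 15.6%, against 5.47% and 5.56% of all genes tested. Higher in cochlear ENHC were the ligand genes Wnt7a (1.75 ± 0.24) and Wnt5a (1.12 ± 0.21), the R-spondin gene Rspo2 (1.61 ± 0.18) and its receptor gene Lgr5. Wnt3 was undetected on every Cochlear ENHC array, at 4.33, 4.59 and 4.37, against 7.003, 7.63 and 7.17 in vestibular ENHC (at least 3.45-fold lower). Sfrp5, which encodes a secreted Wnt antagonist, was at least 5.12-fold lower and Lef1, a transcription factor of the pathway, at least 1.67-fold lower. Wnt3 and Sfrp5 were also undetected on all HC and NEC arrays.

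Of 26 measured FGF pathway genes, 7 were called lower in cochlear ENHC (26.9%) and 1 higher (3.85%), with a median difference of -0.14. Over all genes tested, 5.56% were lower and 5.47% higher. Fgf10, a ligand of the prosensory region, was the one called higher, at 10.25, 9.95 and 10.44 in cochlear ENHC, against 8.29, 8.11 and 9.10 in vestibular ENHC (1.72 ± 0.27, adjusted p = 0.000223). Among those lower were the pathway's nuclear effectors Etv1 (-1.99 ± 0.24) and Etv5 (-1.17 ± 0.28) and the feedback phosphatase Dusp6 (-1.09 ± 0.29). The FGF count of 8 called fell to 3 under median scaling, 5 without Cochlear ENHC replicate 2, 4 without Cochlear ENHC replicate 3, 5 without Vestibular ENHC replicate 1 and 5 without Vestibular ENHC replicate 2; Etv5 and Dusp6 were lost under median scaling and Etv1 under no alternative.

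Notch genes were higher in 5 of 29 measured (17.2%) and lower in 1 (3.45%), against 5.47% and 5.56% of all genes tested. Their median difference was 0.19. Jag1, the ligand of prosensory and supporting cells, measured 9.90, 10.10 and 10.71 in cochlear ENHC, against 8.89, 8.91 and 9.26 in vestibular ENHC (1.22 ± 0.29, adjusted p = 0.00716), Nrarp, a target of the pathway, differed by 0.96 ± 0.21, and Mfng, which encodes a fringe enzyme, by -1.28 ± 0.25. The count of 6 called was 3 without Cochlear ENHC replicate 3, among them not Jag1 (adjusted p = 0.0576). Planar polarity genes were called about as rarely as all genes, 2 of 21 (9.52%, against 11%). They were the protocadherins Fat4 (2.02 ± 0.28) and Fat3 (1.16 ± 0.32). The planar polarity count was 1 without Cochlear ENHC replicate 3 or without Vestibular ENHC replicate 2, and 4 with array weights.

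Axon guidance genes were called higher in 10 of 47 measured (21.3%) and lower in 5 (10.6%), against 5.47% and 5.56% of all genes tested. The median difference was 0.18. Slit2, a repellent ligand, measured 8.72, 9.01 and 9.37 in cochlear ENHC, against 6.41, 6.26 and 7.73 in vestibular ENHC (2.23 ± 0.30, adjusted p = 3.99e-05), Slit3 differed by 1.62 ± 0.22 and the receptor gene Robo2 by 2.03 ± 0.29. Sema3e, which encodes a semaphorin, was at least 6.17-fold lower, at 4.52, 4.28 and 4.80 in cochlear ENHC, against 7.94, 8.18 and 8.20 in vestibular ENHC, and the semaphorin receptor gene Plxna4 at least 5.49-fold lower. Sema6b was at least 3.72-fold higher and undetected in vestibular ENHC.

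Basement membrane and proteoglycan genes were higher in 10 of 45 measured (22.2%) and lower in 7 (15.6%), against 5.47% and 5.56% of all genes tested. The median difference was -0.14. Beside Epyc and Lum, Papss2, which makes the donor for sulphation of proteoglycans, was higher at 9.17, 9.35 and 8.73 in cochlear ENHC, against 7.08, 6.64 and 6.84 in vestibular ENHC (2.23 ± 0.25, adjusted p = 4.95e-06). Bgn, the small leucine-rich proteoglycan biglycan, was lower (-1.93 ± 0.27, adjusted p = 6.09e-05). Keratins and adhesion genes were lower in 7 of 29 (24.1%) and higher in 2 (6.9%), with a median difference of -0.04. Among those lower were the keratins Krt23 (-1.85 ± 0.27) and Krt7 (-1.47 ± 0.25) and the desmosomal cadherin Dsg2 (-1.25 ± 0.21). Claudins and connexins were called in 3 of 20 (15%, against 11% of all genes tested). Gjb2, the connexin 26 gene, was higher (1.71 ± 0.28) and Cldn8 (-1.60 ± 0.19) and Cldn3 (-0.68 ± 0.17) were lower; 6 were called with the replicate number as a block. Gjb6, the partner connexin 30, did not pass the test (0.75 ± 0.26, adjusted p = 0.0779, and 0.0293 with the replicate number as a block).

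Cell cycle genes were called at about the rate of all genes, 4 of 44 measured (9.09%, against 11%), all lower in cochlear ENHC (median difference -0.24). Ccnd2, cyclin D2, was the largest, at 5.63, 5.88 and 6.49 in cochlear ENHC, against 8.28, 8.78 and 9.25 in vestibular ENHC (-2.77 ± 0.29, adjusted p = 1.87e-06), and Cenpf, Prc1 and Birc5 were the others. The count was 8 with the replicate number as a block, and 2 under median scaling, without Cochlear ENHC replicate 3 or without Vestibular ENHC replicate 1. Cdkn1c, the cell cycle inhibitor p57, was higher at 11.67, 11.64 and 11.89 in cochlear ENHC, against 10.69, 10.54 and 10.66 in vestibular ENHC (1.11 ± 0.18, adjusted p = 0.000218), one of 4 inhibitors called among 11. The 4 called are 36.4% of the inhibitors, against 11% of all genes tested. Their count was 2 under median scaling, without Cochlear ENHC replicate 1 or without Vestibular ENHC replicate 1.

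**Figure D4:**
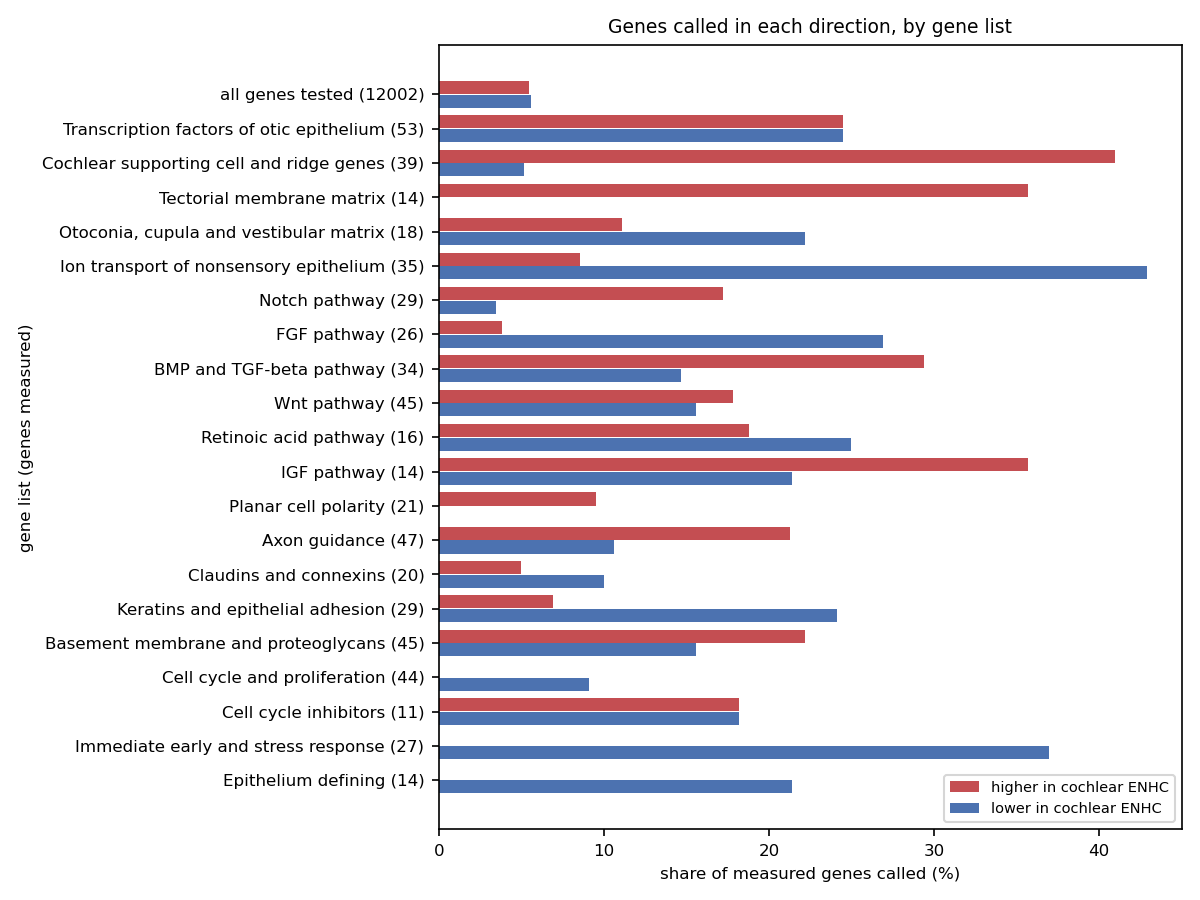
Share of measured genes (x axis, percent) called higher (upper bar) and lower (lower bar) in cochlear ENHC, by gene list with the number of genes measured in brackets. All genes tested stand at 5.47% higher and 5.56% lower; cochlear supporting cell and tectorial genes lean to higher, ion transport, FGF and stress genes to lower.

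Early response and stress genes, which can respond to tissue handling, were lower in cochlear ENHC in 10 of 27 measured and higher in 0 (median difference -0.65). Lower calls made up 37%, against 5.56% of all genes tested. Egr3 measured 7.59, 8.21 and 7.35 in cochlear ENHC, against 9.51, 9.88 and 9.90 in vestibular ENHC (-2.04 ± 0.34, adjusted p = 0.000359), and Hspb1, a small heat shock protein, differed by -1.89 ± 0.28. The summed signal of the list was 27915 to 35848 in cochlear ENHC and 40138 to 50806 in vestibular ENHC, with no overlap. The other cell types had the same order without overlap. The sum was 24672 to 26961 in Cochlear HC and 33757 to 37400 in Vestibular HC. In NEC it was 29888 to 37032 on the cochlear side and 40532 to 44685 on the vestibular side. Under median scaling, which put the median difference of all genes at 0.155 in place of 0.033, 6 of the 27 were called. The part of this shift in other results was not tested.

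Some markers of other cells were called between the organs. Of 29 mesenchyme and fibrocyte genes, 4 were higher in cochlear ENHC (13.8%) and 7 lower (24.1%), against 5.47% and 5.56% of all genes tested. The median difference was -0.24. Col3a1, a fibrillar collagen, measured 6.49, 5.10 and 5.22 in cochlear ENHC, against 8.79, 8.58 and 8.96 in vestibular ENHC (-3.17 ± 0.27, adjusted p = 1.49e-07), and averaged 11.54 in Cochlear NEC and 11.72 in Vestibular NEC. Coch, the fibrocyte protein cochlin, differed by -2.93 ± 0.32 and Col1a1 was undetected in cochlear ENHC (at least 3.74-fold lower). Pou3f4 and Twist1, which define otic mesenchyme, were undetected on all 6 ENHC arrays, and Prrx1 was detected on 1 vestibular array. The summed signal of the list was 6675 to 8869 in cochlear ENHC and 4549 to 7244 in vestibular ENHC, against 30282 to 36086 in Cochlear NEC and 38445 to 41970 in Vestibular NEC. The 4 members higher in cochlear ENHC were Lum, Dcn, Gjb2 and Fbln2. The part of mesenchymal RNA in these differences was not tested.

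Neuron genes were higher in 4 of 16 measured (25%) and lower in 1 (6.25%), against 5.47% and 5.56% of all genes tested. Their median difference was 0.11, with a summed signal of 1805 to 2388 in cochlear ENHC and 721 to 1063 in vestibular ENHC. Syt1, a synaptic vesicle protein that HC also express, differed by 3.01 ± 0.33, and Stmn2, a neuronal microtubule regulator, was at least 2.41-fold higher at 6.84, 6.57 and 6.49 in cochlear ENHC, against 4.48, 4.38 and 4.52 in vestibular ENHC. Tubb3, Snap25 and Elavl4 were undetected on all 6 arrays. Gata3 and Isl1, the other neuron genes called higher, are also on the transcription factor list. Endothelial genes were called in 2 of 16 (12.5%, against 11% of all genes tested), Kdr and Rgs5 being lower, both undetected in cochlear ENHC, while Pecam1 and Cdh5 were undetected on all 6 arrays. None of 12 blood and immune genes or 5 melanocyte genes was called, against 11% of all genes tested. The blood and immune list summed to 106 to 129 in cochlear ENHC and 117 to 631 in vestibular ENHC. Of its 12 genes, 11 were detected on no Cochlear ENHC array and 6 on no Vestibular ENHC array. Glial genes were called in 4 of 13 (30.8%, against 11% of all genes tested). Their count was 2 without background correction, with the normalized values as deposited, without Cochlear ENHC replicate 2 or without Vestibular ENHC replicate 1. Hair cell genes were called in 2 of 27 (7.41%, against 11% of all genes tested), Ush1c (-1.08 ± 0.19) and Slc17a8. Slc17a8 lost its call without background correction, with the larger offset, under median scaling, with the normalized values as deposited and without Vestibular ENHC replicate 3. Of 8 cartilage and bone genes, 2 were higher (25%, against 5.47% of all genes tested) and 0 lower. Matn1, a cartilage matrix gene, was one of them (2.45 ± 0.61, adjusted p = 0.0118), while Acan, which defines cartilage, was undetected on all 6 arrays. The list summed to 16818 to 19150 in cochlear ENHC and 9137 to 10699 in vestibular ENHC. Its sums were lower in NEC, 5443 to 6733 in Cochlear NEC and 6806 to 7681 in Vestibular NEC. The part of these cells in other results was not tested.

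**Figure D5:**
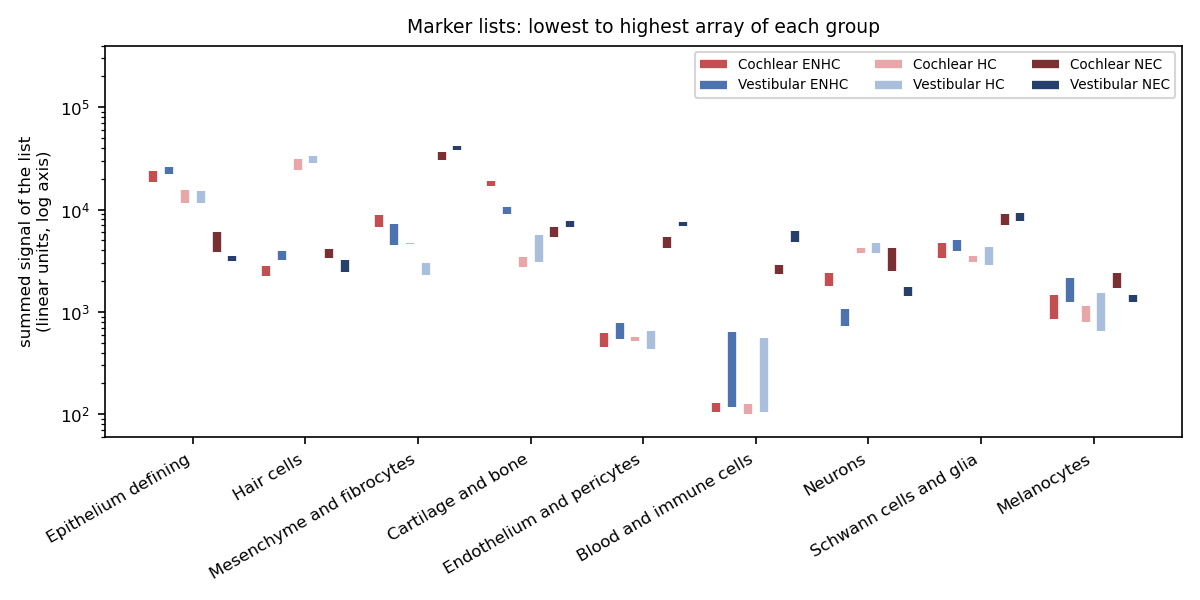
Summed normalized signal of each marker list (y axis, linear signal units on a log axis), drawn from the lowest to the highest array of each of the 6 groups, with Cochlear ENHC and Vestibular ENHC first. Epithelial markers sum to 18715 to 23761 in cochlear ENHC and 22223 to 25783 in vestibular ENHC, and mesenchyme markers do not pass 8869 in either.

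The organ difference was set against that of HC and of NEC with interaction tests in the same limma fit. HC differed between organs in 1718 genes (14.3%) and NEC in 742 (6.18%). The difference in ENHC was larger or smaller than that in HC for 1300 of all genes tested (10.8%) and for 607 of the 1323 called in ENHC (45.9%). For NEC these counts were 951 (7.92%) and 635 (48%). The 1323 genes were selected on the ENHC difference that both interactions contain, which by itself raises the shares among them. Of the 656 genes higher in cochlear ENHC, 123 were also higher in cochlear HC and 66 lower there, and 68 were higher in cochlear NEC and 29 lower. Of the 667 genes lower in cochlear ENHC, 201 were also lower in cochlear HC and 39 higher, and 72 were lower in cochlear NEC and 40 higher. Interactions of a gene undetected in any of the 4 groups are model values that depend on the offset.

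Some genes had opposite organ differences in ENHC and HC. Lamb1, the laminin beta 1 chain of basement membranes, measured 11.07, 10.82 and 10.77 in cochlear ENHC, against 9.54, 9.69 and 9.63 in vestibular ENHC, while it averaged 5.37 in Cochlear HC and 8.16 in Vestibular HC (interaction 4.07 ± 0.38, adjusted p = 1e-06). Zfp503, a zinc finger regulator, measured 6.24, 4.94 and 5.61 in cochlear ENHC, against 8.15, 7.39 and 7.17 in vestibular ENHC, while it averaged 9.03 in Cochlear HC and 5.12 in Vestibular HC (interaction -5.88 ± 0.60, adjusted p = 2.89e-06). Slc14a1, a urea transporter, and Wfdc12 were undetected in cochlear ENHC and in vestibular HC but detected on all 3 arrays of vestibular ENHC and of cochlear HC. Meis2, Dlx5 and Tbx3 were lower on the cochlear side in both ENHC and HC, and Aldh1a3 averaged 4.97 in Cochlear HC and 10.50 in Vestibular HC.

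Zpld1 and Aldh1a3 were higher on the cochlear side in NEC and lower on the cochlear side in ENHC. Zpld1 averaged 9.72 in Cochlear NEC and 7.26 in Vestibular NEC, which gave an interaction of -8.22 ± 0.53 (adjusted p = 2.5e-08), and Aldh1a3 averaged 8.13 in Cochlear NEC and 5.99 in Vestibular NEC (interaction -6.42 ± 0.35, adjusted p = 7.43e-09). Lum and Clic6 ran the other way, with 7.32 and 5.29 in Cochlear NEC and 8.84 and 7.07 in Vestibular NEC. Some genes were seen in ENHC of 1 organ and in no other group: Crabp1, Spink5, Nr2e1 and Upp1 were detected on all 3 Cochlear ENHC arrays and on none of the other 15, and Nox3, Wnt3, Sfrp5 and Tacr3 on all 3 Vestibular ENHC arrays and on none of the other 15.

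Fixed signal limits, under which any kept probe of a gene could qualify, gave short lists of genes marking ENHC of 1 organ against the other. HC and NEC arrays were not held to the limits, whereas the study set its low limit for all other samples. With a quantile-normalized signal above 250 on all 3 arrays of one organ and below 120 on all 3 of the other, 8 genes marked cochlear ENHC: 4930412O13Rik, Thrb, Crabp1, Spink5, Isl2, Spire2, Nr2e1 and Mctp1. By the same limits 18 genes marked vestibular ENHC: Nox3, Grem1, Vit, Vnn1, Atp2a3, Myh8, Sema3e, Slco2a1, Vcan, Tacr3, Dlk1, Itgbl1, Mybpc1, Cp, Aldh1a2, Fam171b, Fndc7 and Plxna4. Atp2a3, Itgbl1 and Myh8 met the limits by another probe than the one used in the fit, and the fitted probe of Itgbl1 was detected on all 3 Cochlear ENHC arrays. On HC or NEC arrays the signal reached 2283.8 for Atp2a3, 990.5 for Cp, 830.7 for Vcan and 467.1 for 4930412O13Rik. Crabp1, Spink5, Nr2e1, Nox3 and Tacr3 stayed below 120 on all HC and NEC arrays. The cochlear count was 20 without Vestibular ENHC replicate 3 and 13 without Cochlear ENHC replicate 2, and the vestibular count was 27 without Cochlear ENHC replicate 1.

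Promoter windows of the genes called were searched for 5 motifs on both strands. AGATAA was found in 6.85% of 672 promoters of genes higher in cochlear ENHC and in 7.97% of 690 promoters of genes lower there, against 6.48% of 12375 promoters of genes tested and 11.2% of all 32851. TATAAA was found in 7.59% of the promoters of genes higher in cochlear ENHC and in 12.9% of those of genes lower there, against 7.81% of genes tested and 13.6% of all. The other shares lay between 2.68% and 10.4%, for the homeodomain motif TAATTA, the Otx motif TAATCC and the E-box CACGTG. Epyc and Tacr3, whose windows are printed above, hold an AGATAA and a TATAAA, and the motifs do not overlap one another in these windows. The shares are descriptions without a test, and some genes have several promoters in the table.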

How the data were processed

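The authors extracted RNA from the sorted cells, hybridised it to Illumina mouse BeadChips and computed probe intensities in Bead-Studio. The deposited table held a non-normalized intensity and a detection p-value, as assigned by Bead-Studio, for each of 45281 probes on each of 18 arrays. A second deposited table of normalized intensity values differed by at most 0.289% from quantile-normalized signals and served as an alternative. The Bead-Studio version was not given in the sources used here.

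Signals were corrected for background by normexp on the detection p-values (offset 16), scaled by quantile normalization and put on the log2 scale. Probes detected (p under 0.01) on at least 2 of 18 arrays were kept, 24352 in number. Symbols came from the platform annotation, in which 34885 probes had 1 gene symbol, 18 several and 10378 none; probes without exactly 1 were left out. For each of 12002 genes the kept probe with the highest mean was used, and 5126 genes had several. Probes of 1 gene, Arhgap12, were called in opposite directions.

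A model with 1 mean for each of 6 groups was fitted over all 18 arrays in limma 3.58.1 (R 4.3.3), with Benjamini-Hochberg adjustment over all genes at 0.05, two-sided. Interaction contrasts were taken from the same fit. The code was tested on simulated data. The number of arrays limits the precision, and nothing states what a replicate number shares beyond the pooled mice. Same-numbered Cochlear ENHC and Vestibular ENHC arrays deviated together from their group means (r = 0.448, 0.32 and 0.324), so the numbers were taken to pair them, and a fit with the replicate number as a block was an alternative. Other alternatives changed background, scaling, filter, probe choice, thresholds, arrays used and array weights, and left out each array in turn.

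Genes were named for the largest differences or lower bounds, for the smallest adjusted p in each gene list and for the largest interactions. Other genes were named after their values were seen, because they complete a list or a pathway. The members and the gene lists were chosen with earlier results of these data known. Gene lists were described by counts and medians, and lists share some genes.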

Additional observations from a re-analysis of the deposited data

Results flagged for a closer look

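The organ difference in ENHC differed from that in HC by the interaction test in limma for 1300 genes and from that in NEC for 951 genes. The interaction is the difference in ENHC minus that in the other cell type, in log2. Where a gene went undetected in a group, its value depends on the offset.

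Against HC, the largest positive interactions among these genes were led by Epyc (5.82, adjusted p = 0.000116), which averaged 4.62 in Cochlear HC and 4.53 in Vestibular HC. Pkd2l1, a channel of the polycystin family, gave 4.87 (adjusted p = 3.31e-06), with 7.84, 7.68 and 8.11 in cochlear ENHC, against 6.19, 5.18 and 6.89 in vestibular ENHC, and with means of 5.16 in Cochlear HC and 8.24 in Vestibular HC. Adgrg2 gave 4.44, Rai2 4.16 and Lamb1 4.07. Rai2 averaged 6.06 in Cochlear HC and 8.24 in Vestibular HC, and was 1.97 higher in cochlear ENHC than in vestibular ENHC.

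Among genes also called in ENHC, the largest negative interactions against HC were Wfdc12 (-6.16), Zfp503 (-5.88), Slc14a1 (-4.95), Vcan (-4.80) and Vit (-4.73). Wfdc12 measured 4.78, 4.46 and 4.83 in cochlear ENHC, against 7.59, 7.37 and 7.93 in vestibular ENHC, and averaged 7.70 in Cochlear HC and 4.48 in Vestibular HC. Vcan averaged 7.09 in Cochlear HC and 5.86 in Vestibular HC, the reverse of its order in ENHC.

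Against NEC, the interactions were 6.32 for Epyc, 6.29 for Adgrg2, 6.04 for Lum, 5.69 for Clic6 and 5.61 for Pcolce2. Adgrg2 averaged 7.05 in Cochlear NEC and 8.60 in Vestibular NEC. On the negative side stood Zpld1 (-8.22), Aldh1a3 (-6.42), Mybpc1 (-5.91), Snhg11 (-5.28) and Mme (-4.81). Of these, Mme lost its call in ENHC under 8 of 27 alternatives, among them the omission of any single ENHC array. Its difference in ENHC lay between -1.18 and -0.75 over the alternatives. Mybpc1 averaged 9.02 in Cochlear NEC and 7.87 in Vestibular NEC, Snhg11, a noncoding host of small nucleolar RNAs, 8.51 in Cochlear NEC and 5.70 in Vestibular NEC, and Mme, the peptidase neprilysin, 9.11 in Cochlear NEC and 5.37 in Vestibular NEC.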

How the results depend on the processing

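Beside the 1323 of 12002 genes called in ENHC, 2157 of 24352 kept probes were called when probes were tested one by one. The count of genes was 876 with a fold of at least 2 and 841 at an adjusted p under 0.01. Leaving out 1 array of the 18 gave 966 to 1448 genes, 1058 to 1312 for the interaction with HC and 771 to 1032 for that with NEC. The pairing fit, with the replicate number as a block, called 1846 genes, among them all 1323, with 1741 for the interaction with HC and 1266 for that with NEC, and no gene named in the text lost its call in it. Median scaling called 945 genes, 913 of them among the 1323, and 56.2% of its calls were higher against 49.6%. The fit of the 6 ENHC arrays alone called 1096 genes, and the remaining alternatives that changed processing called between 1288 and 1774. Limits of 200 and 120 on the signal gave 18 cochlear and 33 vestibular marker genes, and leaving out 1 ENHC array gave 9 to 20 cochlear and 20 to 27 vestibular ones. Of 175 genes named in the text or by the naming rule and called, 147 kept their call under all 27 alternatives of the fit, 28 lost it under at least 1 and none changed direction. Of 38 such genes not called, 8 passed under at least 1 alternative (Gjb6, Lmx1a, Oc90, Otx1, Prox1, Slc12a2, Sox2 and Sox9), 5 of them with the block. At an unadjusted p under 0.05, 2617 genes passed. Signals near the border of detection limit the folds of genes undetected on one side. The causes of these changes were not tested.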

Other observations

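Detection on single arrays varied within vestibular ENHC. Of 600 genes called higher and detected on all 3 Cochlear ENHC arrays, 460 were detected on Vestibular ENHC replicate 1, 377 on replicate 2 and 477 on replicate 3. Of 585 genes called lower and detected on all 3 Vestibular ENHC arrays, 415 were detected on Cochlear ENHC replicate 1, 375 on replicate 2 and 380 on replicate 3.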
